A study of Homo sapiens with 6 samples.

Results

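The 34 genes described here carry out or control the synthesis of sterols and fatty acids under the sterol regulatory element binding proteins (SREBPs). They were chosen by symbol, 25 in a sterol branch and 9 in a fatty acid branch, out of 17280 genes in the deposited table, and all 34 were found and passed the filter of a mean of at least 1 TPM. RNA of CAL-27, a long-established human cell line from a squamous carcinoma of the tongue, was sequenced in 6 libraries. The cells grew as spheres, that is in suspension, which favours stem-like cells. The 3 libraries titled LF3 stand against 3 control libraries titled CON; LF3 is a compound that keeps beta-catenin from its partner TCF4, and 24 h of exposure is given in the series design. The treatment field of the same 3 libraries instead names elesclomol with copper, so "LF3" below means the libraries with that title. The comparison belongs to a study of Wnt signalling and cuproptosis, a copper-driven cell death. A single cell line was used, the labels used here name no vehicle or dose, and they do not tell whether replicates came from different cultures, so the p-values here reflect the scatter among these libraries alone, which may be technical.

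Cells make cholesterol from acetyl-CoA through mevalonate, squalene and lanosterol. The SREBPs, encoded by SREBF1 and SREBF2, are made as membrane proteins of the endoplasmic reticulum. SCAP carries them to the Golgi, where they are cut and freed to enter the nucleus. When sterols are plentiful, INSIG proteins hold SCAP back and the target genes go quiet. SREBP-2 acts mainly on the sterol genes and SREBP-1c mainly on the fatty acid genes, with overlap between them. The oxysterol receptor LXR raises transcription of SREBF1 and of the sterol exporter gene ABCA1. RNA levels do not measure the cutting of SREBP proteins, lipid levels or enzyme activity, and none of these was measured here.

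Values are TPM (a length-corrected share of the library's transcripts), which corrects reads for gene length and scales each library to a fixed total. The unit allows levels of different genes to be compared, but sequencing depth cannot be read from it and counting intervals cannot be given. Each log2 fold change is the LF3 mean minus the CON mean of log2(TPM + 1), ± the limma standard error, and a gene is called at a Benjamini-Hochberg adjusted p under 0.05 over all 12195 tested genes (limma, two-sided). Means are ± SD with n = 3 libraries in each group. The LF3 and CON libraries differed widely: 85.5% of tested genes were called, 53.2% higher and 32.3% lower, and over all of them the median log2 fold change stood at 0.24. Median-ratio scaling of the libraries brought that median to -0.0055, with 42.6% called higher and 42.7% lower, and quantile normalization gave 43.9% and 41.5%, so small positive changes of single genes depend on the scaling. The libraries carried the squamous epithelial markers KRT5, KRT6A, KRT17, TP63, DSG3 and EPCAM, while the mean of KRT14 was below 1 TPM. The endothelial markers PECAM1, CDH5 and VWF summed to 6.24 to 7.26 TPM in LF3 and 0.39 to 0.53 TPM in CON, with CDH5 the only one of these 3 at a mean of at least 1 TPM, and the 5 fibroblast markers summed to 6.03 to 7.04 TPM in LF3 and 11.96 to 13.56 TPM in CON. No marker of these lists was at 0 in all 6 libraries. The leukocyte, hepatocyte and adipocyte lists, likewise without a marker at 0 in all 6, summed to at most 3.09 TPM each in any library, and the part of other cells in the results was not tested. In bulk RNA, fewer cells of a type and less RNA per cell cannot be told apart.

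The branches showed unlike pictures. In the sterol branch 18 of 25 genes fell, 6 rose and 1 was not called, against 32.3% of tested genes lower and 53.2% higher, and the median log2 fold change was -0.76. In the fatty acid branch 6 of 9 genes rose, 2 fell and 1 was not called, with a median of 0.45. On the log2(TPM + 1) scale, falls of at least 2-fold were called in 10 sterol genes and 2 fatty acid genes, against 11.1% of all tested genes, and rises of at least 2-fold in 1 sterol gene and 2 fatty acid genes, against 20.8%. After median-ratio scaling such falls numbered 14 and 2, against 15.3% of all tested genes, and such rises 0 and 1, against 14%; LSS (0.77) and ELOVL6 (0.78) were then called below that size. The values of the LF3 libraries lay wholly below those of CON in 18 sterol and 3 fatty acid genes, against 32.7% of tested genes, and wholly above in 6 and 6, against 53.5%. After median-ratio scaling the counts were 19 lower and 4 higher in the sterol branch and 3 lower and 5 higher in the fatty acid branch, against 42.7% lower and 42.6% higher of all tested genes. Quantile normalization gave 20 lower and 5 higher in the sterol branch and 3 lower and 4 higher in the fatty acid branch, against 41.5% lower and 43.9% higher. The difference between the branches was not tested, since members were chosen by function and are not replicates.

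**Figure D1:**
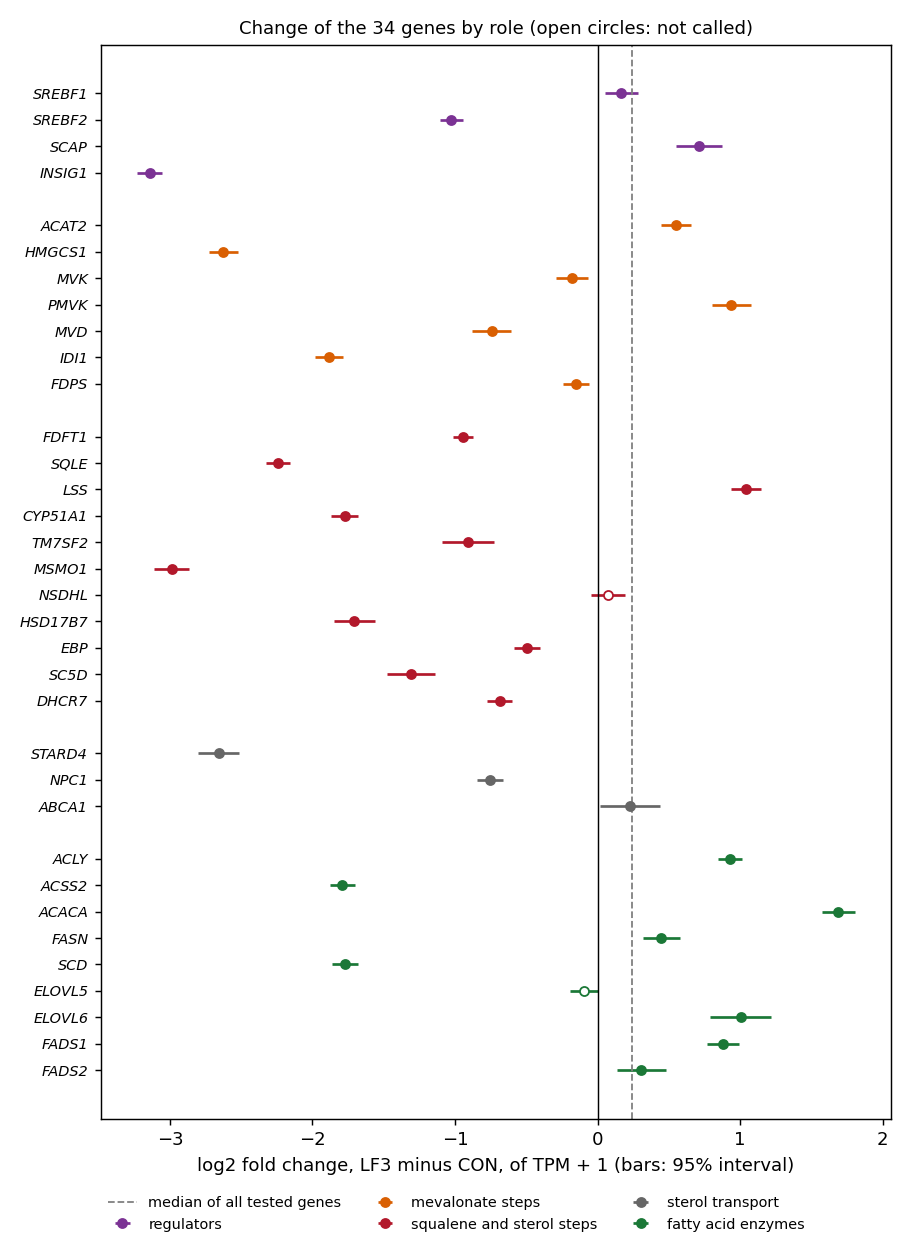
Log2 fold change of each of the 34 genes, LF3 minus CON, with limma 95% intervals; colours mark the roles, open circles genes that were not called, and the dashed line the median of all tested genes (0.24). INSIG1, MSMO1, STARD4, HMGCS1 and SQLE lie farthest to the left, and ACACA lies farthest to the right.

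**Figure D2:**
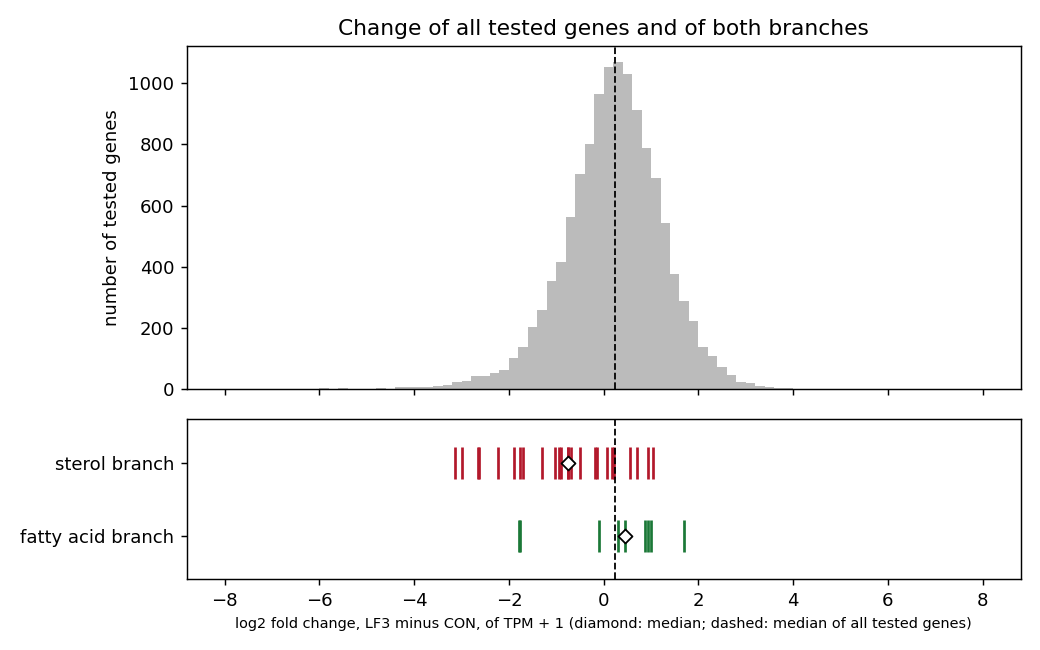
Histogram of the log2 fold change of the 12195 tested genes (bars, number of genes per bin) with the genes of each branch as ticks below it and the branch median as a diamond. The sterol median lies at -0.76 and the fatty acid median at 0.45, on either side of the median of all tested genes at 0.24 (dashed).

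Promoters were examined because so many sterol genes fell together and SREBPs bind DNA beside the factors NF-Y and Sp1. The 250 bases before each RefSeq start (GRCh38.p14) were read for 30 of the 34 genes; the 4 without an entry are ACAT2, FDFT1, FASN and SQLE. Both strands were searched for 4 motifs. The first was TCACNCCAC, a core form of the sterol regulatory element. The second was the NF-Y motif CCAAT, the third the Sp1 motif GGGCGG and the last the E-box CACGTG. A gene counted if any of its listed starts held the motif, and none of the motifs was barred from overlapping another. The NF-Y motif was found in 14 of 16 sterol genes that fell and in 1 of 5 that rose. Those that rose and lack it include SREBF1, whose direction depends on the scaling, and ABCA1, whose call depends on the settings. SREBF1 had 1 listed start, although SREBP-1a and SREBP-1c arise from separate starts, so not every promoter of this gene was read. The sterol genes that fell also had more listed starts, a mean of 1.312 against 1.0 for those that rose. Among the 10045 tested genes with an entry, 41.84% held the NF-Y motif, as did 41.69% of those called lower and 42.37% of those called higher. In the fatty acid branch 5 of 8 genes held it. The Sp1 motif was in 28 of 30 members, against 75.45% of tested genes, and the E-box in 5 of 30, against 11.32%. The sterol element in this spelling was in SREBF2 alone among the 30, against 1.17% of tested genes; SREBPs are known to bind variants that it misses. These shares are descriptions of the letters in a short window, with no test, and a match is not a binding site.

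Of the promoters, those shown are of SREBF2, which holds the sterol element, of genes that fell by a large amount and of 3 that rose, each 5′ to 3′ on the gene's strand with the searched motifs in capitals. SREBF2 (chr22:41832855-41833104, plus strand) holds 1 sterol element and, on the other strand, 1 NF-Y motif, at -133 and -106 relative to the start. INSIG1 (chr7:155297628-155297877, plus strand) holds 1 NF-Y motif and 1 E-box. HMGCS1 (chr5:43313413-43313662, minus strand), STARD4 (chr5:111512536-111512785, minus strand) and SCD (chr10:100346983-100347232, plus strand) hold 2 NF-Y motifs each, and MSMO1 (chr4:165327419-165327668, plus strand) holds 4. Of the genes that rose, LSS (chr21:46228775-46229024, minus strand) and ACACA (chr17:37359097-37359346, minus strand) hold 1 NF-Y motif each and FADS1 (chr11:61817004-61817253, minus strand) none. HMGCS1 and ACACA have several RefSeq starts, and the one with most kinds of motif is shown.
SREBF2: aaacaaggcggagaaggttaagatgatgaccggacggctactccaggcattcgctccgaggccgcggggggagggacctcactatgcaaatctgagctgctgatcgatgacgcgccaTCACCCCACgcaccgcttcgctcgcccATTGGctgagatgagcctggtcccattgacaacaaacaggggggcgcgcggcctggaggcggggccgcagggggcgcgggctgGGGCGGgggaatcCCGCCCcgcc
INSIG1: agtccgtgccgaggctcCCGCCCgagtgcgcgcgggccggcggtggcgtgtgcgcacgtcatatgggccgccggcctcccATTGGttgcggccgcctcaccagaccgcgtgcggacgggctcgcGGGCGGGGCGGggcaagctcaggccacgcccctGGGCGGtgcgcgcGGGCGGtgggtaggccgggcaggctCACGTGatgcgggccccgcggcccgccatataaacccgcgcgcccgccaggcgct
HMGCS1: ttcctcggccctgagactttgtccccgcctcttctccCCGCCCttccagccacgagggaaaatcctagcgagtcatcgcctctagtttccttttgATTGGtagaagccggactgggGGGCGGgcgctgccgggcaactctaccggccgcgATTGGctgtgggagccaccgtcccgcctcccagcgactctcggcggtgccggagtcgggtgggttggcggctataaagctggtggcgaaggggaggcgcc
MSMO1: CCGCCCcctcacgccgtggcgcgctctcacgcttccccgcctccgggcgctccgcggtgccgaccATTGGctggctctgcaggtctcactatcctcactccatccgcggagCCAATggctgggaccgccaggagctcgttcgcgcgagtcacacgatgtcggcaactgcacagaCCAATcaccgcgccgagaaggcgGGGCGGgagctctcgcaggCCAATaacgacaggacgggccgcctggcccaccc
STARD4: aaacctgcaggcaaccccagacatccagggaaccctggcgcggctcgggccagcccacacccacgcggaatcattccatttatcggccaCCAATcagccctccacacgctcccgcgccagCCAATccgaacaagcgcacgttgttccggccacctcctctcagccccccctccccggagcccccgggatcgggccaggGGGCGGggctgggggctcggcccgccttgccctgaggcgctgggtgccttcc
SCD: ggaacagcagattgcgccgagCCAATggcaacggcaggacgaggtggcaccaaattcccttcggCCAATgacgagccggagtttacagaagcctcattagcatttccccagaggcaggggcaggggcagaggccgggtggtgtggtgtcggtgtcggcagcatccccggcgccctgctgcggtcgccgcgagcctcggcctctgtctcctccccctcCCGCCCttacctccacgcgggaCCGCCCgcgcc
LSS: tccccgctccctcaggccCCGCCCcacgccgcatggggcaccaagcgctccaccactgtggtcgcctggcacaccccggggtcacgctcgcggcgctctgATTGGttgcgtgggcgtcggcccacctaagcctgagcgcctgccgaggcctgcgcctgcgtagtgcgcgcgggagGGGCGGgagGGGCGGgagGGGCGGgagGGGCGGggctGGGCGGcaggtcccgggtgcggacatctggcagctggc
ACACA: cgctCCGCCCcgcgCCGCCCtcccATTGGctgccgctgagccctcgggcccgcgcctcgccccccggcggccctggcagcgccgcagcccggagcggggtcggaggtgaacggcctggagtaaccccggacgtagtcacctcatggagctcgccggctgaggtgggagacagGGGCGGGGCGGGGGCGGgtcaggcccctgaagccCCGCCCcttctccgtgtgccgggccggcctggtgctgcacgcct
FADS1: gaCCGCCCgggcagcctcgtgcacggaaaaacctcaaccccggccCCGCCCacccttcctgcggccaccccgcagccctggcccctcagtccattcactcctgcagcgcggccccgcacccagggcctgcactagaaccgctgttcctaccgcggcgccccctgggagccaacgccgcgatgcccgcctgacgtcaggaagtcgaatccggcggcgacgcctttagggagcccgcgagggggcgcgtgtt

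Among the regulators, INSIG1 fell most. INSIG1, which retains SCAP in the endoplasmic reticulum and is itself an SREBP target, stood at 47.3, 51.1 and 48.2 TPM in LF3, against 437, 449.7 and 431 TPM in CON. Its CON mean was 8.99 times its LF3 mean, and its log2 fold change of -3.14 ± 0.040 (limma adjusted p = 6.60e-13) ranked 69 from the lowest of 12195 tested genes. SREBF2, encoding SREBP-2, stood at 122, 119.8 and 118 TPM in LF3 and 238, 247 and 252 TPM in CON, with no overlap (-1.03 ± 0.036, limma adjusted p = 5.40e-10). SREBF2 is known to be a target of its own product. SREBF1, encoding SREBP-1a and SREBP-1c from separate starts that a gene-level table cannot separate, stood at 61.8, 59.5 and 59.8 TPM in LF3 and 51.3, 52.5 and 57.3 TPM in CON. The groups of SREBF1 did not overlap, but its small rise (0.17 ± 0.051, limma adjusted p = 0.0100) became -0.10 without a call after median-ratio scaling and -0.20 with a call after quantile normalization, so its direction depends on the scaling. SCAP rose, with 18.9, 17.1 and 17.6 TPM in LF3 and 9.58, 10.9 and 11.2 TPM in CON (0.71 ± 0.074, limma adjusted p = 3.93e-06), and stayed called higher after median-ratio scaling (0.46). The ratio of SREBF1 to SREBF2 within a library, which a single factor per library leaves as it is, was 0.508, 0.496 and 0.506 in LF3 and 0.216, 0.213 and 0.228 in CON. The ratio of INSIG1 to SCAP was 2.74 ± 0.240 in LF3 and 41.8 ± 3.59 in CON (SD, n = 3 each); these and the ratios below were chosen after the values had been seen, and an exact permutation test of 3 against 3 cannot go below 0.1.

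The mevalonate steps, which turn acetyl-CoA into farnesyl pyrophosphate, changed unequally. HMGCS1, which makes HMG-CoA, fell to 58.2, 61.9 and 58.3 TPM in LF3, against 371, 390.3 and 355 TPM in CON (-2.62 ± 0.045, limma adjusted p = 3.75e-12). IDI1, the isomerase that supplies dimethylallyl pyrophosphate, fell to 49.5, 51.1 and 49.0 TPM in LF3, against 189.6, 193 and 178 TPM in CON (-1.88 ± 0.043). MVD, which decarboxylates mevalonate pyrophosphate, was likewise lower at 45.7 ± 2.91 TPM in LF3 and 77.1 ± 5.25 TPM in CON (-0.74 ± 0.062). HMGCS1 and IDI1 were thus lower by a wide margin, while MVK and FDPS were lower by little. MVK, mevalonate kinase, averaged 24.7 ± 0.275 TPM in LF3 and 28.2 ± 0.911 TPM in CON (-0.18 ± 0.051, limma adjusted p = 0.00637). FDPS, farnesyl pyrophosphate synthase, averaged 348 ± 7.14 TPM in LF3 and 386 ± 20.1 TPM in CON (-0.15 ± 0.041, limma adjusted p = 0.00554), the least change of any called sterol gene. The ratio of HMGCS1 to MVK within a library was 2.41 ± 0.0615 in LF3 and 13.2 ± 1.05 in CON.

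In this group the genes that rose were PMVK and ACAT2. PMVK, phosphomevalonate kinase, stood at 24.9, 25.6 and 26.5 TPM in LF3 and 12.1, 13.3 and 13.4 TPM in CON, without overlap (0.94 ± 0.062, limma adjusted p = 7.84e-08). ACAT2, the cytosolic thiolase that condenses acetyl-CoA, stood at 140.1, 146 and 158 TPM in LF3 and 100.3, 99.7 and 102 TPM in CON (0.55 ± 0.047, limma adjusted p = 7.81e-07). In the GENCODE 29 annotation, exons of ACAT2 share 397 bases with the chaperonin gene TCP1 and 1106 bases with SOD2, a mitochondrial superoxide dismutase gene, both on the opposite strand. TCP1 stood at 475 ± 9.98 TPM in LF3 and 198 ± 2.05 TPM in CON, and SOD2 at 1417 ± 103 TPM in LF3 and 179.8 ± 10.5 TPM in CON. The sources used here do not say whether counting used strand, so the value of ACAT2 is uncertain, and the part of these neighbours in it was not tested. Other members carry the same limit. Single antisense genes absent from the deposited table overlap 28.9% of the exon bases of FDPS, 19.94% of HMGCS1 and 8.34% of LSS. NPC1 shares 183 exon bases with RMC1 on the opposite strand. Smaller overlaps exist for further members, and none of these was tested. FDPS and IDI1 have 10 and 3 named pseudogenes in RefSeq, which could share reads with them.

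The squalene and sterol steps held the most falls. From squalene onwards the cell closes the ring, removes methyl groups and moves double bonds to reach cholesterol. FDFT1, squalene synthase and the most abundant of the 34 genes in both groups, fell to 369, 367 and 383 TPM in LF3, against 711, 718 and 729.8 TPM in CON (-0.95 ± 0.031, limma adjusted p = 3.28e-10). SQLE, squalene monooxygenase and a rate-limiting step, fell to 81.3, 76.9 and 78.2 TPM in LF3, against 377, 384 and 367 TPM in CON (-2.24 ± 0.037, limma adjusted p = 3.36e-12). LSS, the cyclase that acts on the product of SQLE, rose: it stood at 46.3, 47.0 and 46.0 TPM in LF3 and 21.7, 21.9 and 22.7 TPM in CON (1.04 ± 0.047, limma adjusted p = 3.87e-09). The ratio of LSS to SQLE was 0.569, 0.611 and 0.588 in LF3 and 0.0574, 0.0570 and 0.0618 in CON, without overlap, with SQLE lower and LSS higher in LF3.

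Of the enzymes that demethylate lanosterol, MSMO1 fell most. MSMO1, the C4-methyl sterol oxidase, stood at 57.0, 56.1 and 50.4 TPM in LF3 and 442, 461 and 413 TPM in CON, and its CON mean was 8.05 times its LF3 mean (-2.99 ± 0.056, limma adjusted p = 6.38e-12). CYP51A1, the lanosterol 14-alpha-demethylase, stood at 65.0, 65.1 and 61.2 TPM in LF3 and 224, 227 and 211 TPM in CON (-1.77 ± 0.043), and has 3 named pseudogenes. Both groups were far apart for these genes, with every LF3 library below every CON library. NSDHL, the dehydrogenase that works with MSMO1, did not pass the test: it averaged 48.0 ± 2.08 TPM in LF3 and 45.7 ± 2.29 TPM in CON, with overlapping libraries and an interval of -0.047 to 0.19 around 0.072. NSDHL was called lower after both scalings (-0.20 after median-ratio scaling and -0.29 after quantile normalization). HSD17B7, the keto-reductase of the same complex, fell to 23.9 ± 1.81 TPM in LF3, against 80.3 ± 4.47 TPM in CON (-1.71 ± 0.064), and has 2 named pseudogenes. TM7SF2, a sterol C14-reductase, averaged 9.33 ± 0.737 TPM in LF3 and 18.4 ± 1.64 TPM in CON (-0.91 ± 0.082). Genes of the last steps fell as well: EBP, the sterol isomerase, had -0.50 ± 0.042, SC5D, the C5-desaturase, -1.31 ± 0.076, and DHCR7, which makes cholesterol from 7-dehydrocholesterol, -0.69 ± 0.039. All 3 were called lower, with limma adjusted p = 7.42e-07, 2.85e-08 and 2.52e-08. SC5D was the least abundant of the 3, at 12.4 ± 1.18 TPM in LF3 and 32.1 ± 1.87 TPM in CON.

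**Figure D3:**
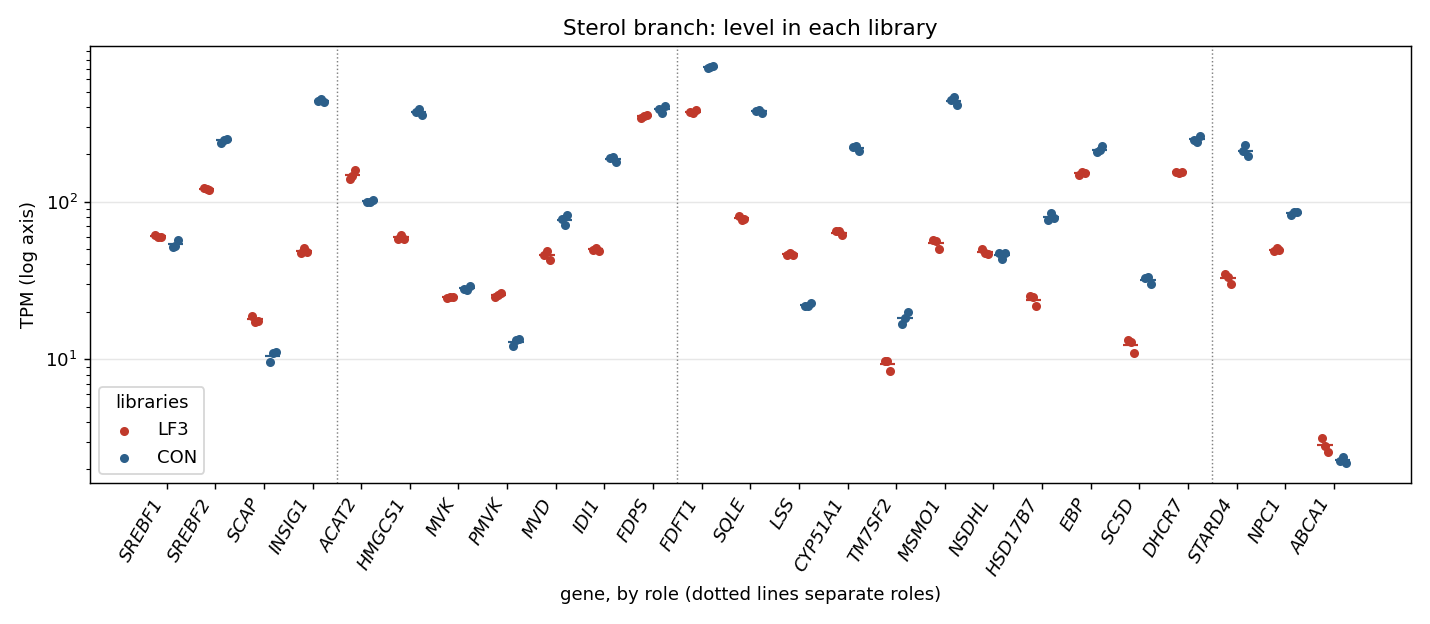
TPM of the 25 sterol genes in each library (log axis), LF3 in red to the left of CON in blue for each gene, with a bar at the mean of 3 libraries; dotted lines separate regulators, mevalonate steps, squalene and sterol steps, and sterol transport. LF3 points lie below CON points for 18 genes, above for 6, and overlap for NSDHL.

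Sterol transport genes were split. STARD4, which carries cholesterol between membranes and is an SREBP target, fell to 34.6, 33.4 and 30.1 TPM in LF3, against 211, 228 and 196 TPM in CON (-2.66 ± 0.065, limma adjusted p = 4.05e-11). NPC1, which exports cholesterol from lysosomes, averaged 49.7 ± 1.28 TPM in LF3 and 84.6 ± 1.87 TPM in CON (-0.76 ± 0.042, limma adjusted p = 2.13e-08). ABCA1, the sterol exporter and LXR target, was low in all libraries, with 3.17, 2.80 and 2.58 TPM in LF3 and 2.25, 2.40 and 2.20 TPM in CON. Its call (0.23 ± 0.095, limma adjusted p = 0.0436) was lost after median-ratio scaling (0.030, adjusted p = 0.755) and with the replicate number as a block (adjusted p = 0.0538). It was also lost when any library other than LF3 replicate 3 was left out (adjusted p = 0.0570 to 0.163) and with a pseudocount of 0.1 (adjusted p = 0.0523). After quantile normalization the call held (0.30, limma adjusted p = 0.00826). Summed over the sterol branch, levels were 2038, 2059 and 2053 TPM in LF3 and 4599, 4679 and 4605 TPM in CON, a sum that the most abundant genes dominate. The order of levels also changed: INSIG1 ranked 19 among the 34 genes by its LF3 mean and 3 by its CON mean, and STARD4 ranked 24 in LF3 and 12 in CON.

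The fatty acid branch opens with the enzymes that make cytosolic acetyl-CoA. ACLY, which makes it from citrate, rose to 108, 111 and 112 TPM in LF3, against 56.5, 57.8 and 57.6 TPM in CON (0.93 ± 0.039, limma adjusted p = 1.90e-09). ACSS2, which makes it from acetate, fell to 32.5, 32.8 and 32.5 TPM in LF3, against 114, 116 and 116 TPM in CON (-1.79 ± 0.039, limma adjusted p = 1.96e-11). The ratio of ACLY to ACSS2 was 3.31, 3.38 and 3.44 in LF3 and 0.494, 0.499 and 0.498 in CON. ACLY was thus the more abundant of the pair in LF3 and the less abundant in CON, in every library.

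Of the 4 enzymes that build and extend the chain, ACACA, FASN and ELOVL6 rose. ACACA, acetyl-CoA carboxylase 1 and the committed step, stood at 40.0, 39.2 and 39.3 TPM in LF3 and 11.5, 11.4 and 11.8 TPM in CON, 3.42 times higher by the means (1.69 ± 0.051, limma adjusted p = 1.86e-10), the highest rise among the 34 genes. FASN, fatty acid synthase, stood at 88.2, 84.0 and 87.5 TPM in LF3 and 58.7, 62.1 and 69.3 TPM in CON (0.45 ± 0.059, limma adjusted p = 2.90e-05), and was not called after quantile normalization (0.11, adjusted p = 0.0852). ELOVL6, which extends palmitate to stearate, was the least abundant member of the branch and rose, with 8.51, 7.82 and 6.69 TPM in LF3 and 3.08, 3.48 and 3.38 TPM in CON (1.0034 ± 0.096, limma adjusted p = 1.92e-06). ELOVL5, which extends polyunsaturated chains, averaged 154 ± 2.64 TPM in LF3 and 164 ± 9.15 TPM in CON and was not called, although the LF3 libraries lay below all CON libraries (-0.095 ± 0.044, limma adjusted p = 0.0661, interval -0.19 to 0.0035). It was called lower after both scalings (-0.37 and -0.37) and without CON replicate 1 (-0.12, adjusted p = 0.0378), and with the replicate number as a block (adjusted p = 0.0337).

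The desaturases went in both directions. SCD, the stearoyl-CoA desaturase that makes oleate, fell to 189, 200.01 and 181 TPM in LF3, against 651, 663 and 639 TPM in CON (-1.77 ± 0.040, limma adjusted p = 2.49e-11). It has 1 named pseudogene in RefSeq, which could share reads with it. FADS1, the delta-5 desaturase of polyunsaturated fatty acids, rose to 58.6, 59.1 and 56.4 TPM in LF3, against 30.1, 32.9 and 30.4 TPM in CON (0.88 ± 0.051, limma adjusted p = 2.65e-08). FADS2, the delta-6 desaturase, stood at 10.8, 9.58 and 10.03 TPM in LF3 and 8.40, 8.18 and 7.38 TPM in CON (0.31 ± 0.076, limma adjusted p = 0.00305), and its call was lost after both scalings (adjusted p = 0.446 and 0.455). FADS1 and FADS2 lie next to each other and share 142 exon bases on opposite strands, and FADS2 shares 49 exon bases with the replication nuclease gene FEN1, which stood at 181 ± 4.65 TPM in LF3 and 34.6 ± 0.706 TPM in CON; the part of shared reads was not tested. The ratio of FASN to SCD was 0.457 ± 0.0334 in LF3 and 0.0975 ± 0.00972 in CON, and that of FADS1 to SCD was 0.306 ± 0.00902 in LF3 and 0.0478 ± 0.00171 in CON. SCD was the most abundant gene of the branch in both groups, and the summed level of the 9 genes was lower in LF3, at 688, 699.9 and 676 TPM, than in CON, at 1091, 1129 and 1095 TPM, although 6 of the 9 rose.

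**Figure D4:**
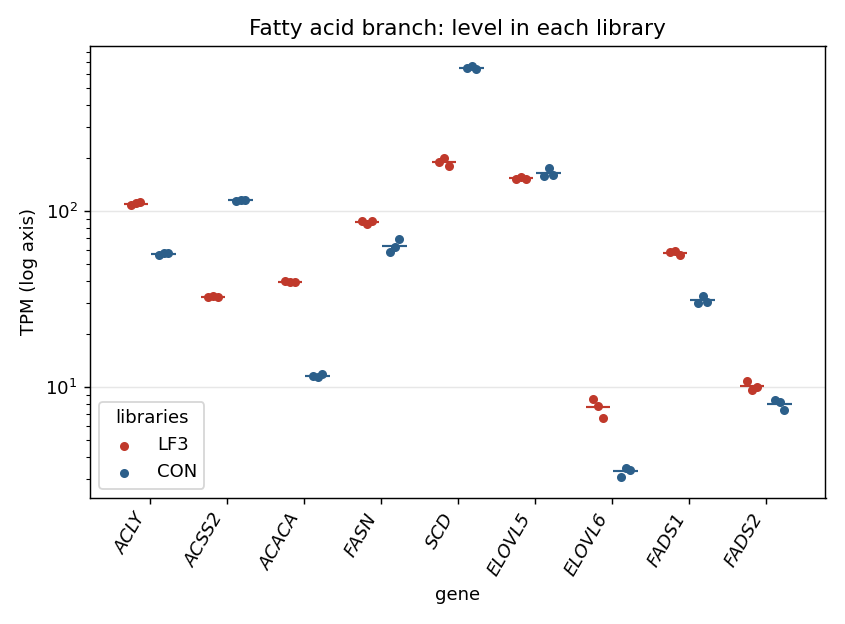
TPM of the 9 fatty acid genes in each library (log axis), LF3 in red to the left of CON in blue, with a bar at the mean of 3 libraries. ACSS2 and SCD are lower in LF3 by more than 3-fold, ELOVL5 is nearly level, and the other genes are higher in LF3.

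Of 17 tested other genes of the SREBP machinery, 12 rose, 4 fell and 1 was not called, against 53.2% of all tested genes higher and 32.3% lower, with a median of 0.46 against 0.24. Median-ratio scaling gave 9 higher and 6 lower, against 42.6% and 42.7% of all tested genes. Quantile normalization gave 8 and 6, against 43.9% and 41.5%, so after it the share higher lay near that of all genes. INSIG2, the second INSIG gene, fell to 21.8, 20.5 and 18.1 TPM in LF3, against 69.2, 73.4 and 68.0 TPM in CON (-1.76 ± 0.068, limma adjusted p = 1.01e-09), so both INSIG genes were lower. MBTPS1, the first protease that cuts SREBPs, rose to 82.8 ± 2.62 TPM in LF3, against 45.1 ± 0.326 TPM in CON (0.86 ± 0.043). SPRING1, which supports that protease, rose to 23.2 ± 0.713 TPM in LF3, against 11.9 ± 0.390 TPM in CON (0.91 ± 0.058). Transcripts of SCAP, MBTPS1 and SPRING1 were thus higher in LF3, while those of SREBF2 and both INSIG genes were lower. Subunits of NF-Y, named after their values were seen, differed in direction: NFYA had -0.47 ± 0.077, NFYC 0.80 ± 0.055 and NFYB 0.22 ± 0.072, with NFYB turning to -0.040 without a call after median-ratio scaling.

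Of 11 tested sterol and isoprenoid enzymes outside the 34 genes, 9 rose, 1 fell and 1 was not called, against 53.2% of all tested genes higher and 32.3% lower, with a median of 1.09. Median-ratio scaling gave 8 higher and 1 lower, against 42.6% and 42.7%, and quantile normalization 8 and 2, against 43.9% and 41.5%. LBR, a lamin B receptor that is also a sterol C14-reductase, rose to 86.8 ± 3.08 TPM in LF3, against 20.7 ± 1.05 TPM in CON (2.02 ± 0.053), while TM7SF2, which catalyses the same reaction, fell.

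Of 19 tested genes of sterol uptake, storage and LXR signalling, 7 rose, 11 fell and 1 was not called, against 53.2% of all tested genes higher and 32.3% lower, with a median of -0.25. Median-ratio scaling gave 6 higher and 12 lower, against 42.6% and 42.7%, and quantile normalization 5 and 13, against 43.9% and 41.5%. CYP27A1 and CH25H, which make oxysterols, lay below the filter. NPC2, the lysosomal partner of NPC1, fell to 407 ± 7.91 TPM in LF3, against 764 ± 15.9 TPM in CON (-0.91 ± 0.031). SOAT1, which esterifies cholesterol for storage, rose to 93.1, 86.9 and 79.3 TPM in LF3, against 22.1, 23.1 and 24.7 TPM in CON (1.85 ± 0.065, limma adjusted p = 5.54e-10). LPCAT3, a phospholipid remodelling enzyme and LXR target, rose to 63.2 ± 3.68 TPM in LF3, against 15.5 ± 1.34 TPM in CON (1.96 ± 0.070). Among other LXR targets, chosen after their values were seen, the apolipoprotein gene APOE fell (-2.90 ± 0.10), as did the exporter gene ABCG1 (-1.75 ± 0.11) and the ubiquitin ligase gene MYLIP (-0.89 ± 0.070). LPCAT3 was thus higher, APOE, ABCG1 and MYLIP were lower, and the call of ABCA1 and the direction of SREBF1 depended on the settings.

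Further fatty acid genes, most of them enzymes, had 12 of 24 tested members higher, 7 lower and 5 not called, with a median of 0.13. These shares were near those of all tested genes (53.2% and 32.3%). MLYCD, ELOVL2, ACSL6 and THRSP were below the filter. The best supported were all higher: HACD3, a dehydratase of chain elongation, with 1.97 ± 0.041, MCAT, of mitochondrial fatty acid synthesis, with 1.90 ± 0.068, ACSL5, which activates long-chain fatty acids, with 1.85 ± 0.074, and FADS3 of the FADS family with 1.54 ± 0.069. That list's median turned to -0.11 after median-ratio scaling, with 10 higher and 11 lower, against 42.6% and 42.7% of all tested genes. Of 13 tested genes of glycerolipid synthesis and lipid droplets, 4 rose, 6 fell and 3 were not called, against 53.2% of all tested genes higher and 32.3% lower, with a median of -0.16. Median-ratio scaling gave 3 higher and 8 lower, against 42.6% and 42.7% of all tested genes. Quantile normalization gave the same counts, against 43.9% and 41.5%. HILPDA, a lipid droplet protein induced by low oxygen, fell to 21.5, 23.3 and 18.9 TPM in LF3, against 417, 439 and 429 TPM in CON, and its log2 fold change of -4.28 ± 0.066 (limma adjusted p = 2.19e-12) ranked 16 from the lowest of all tested genes. LPIN3, a phosphatidic acid phosphatase gene, fell (-1.33 ± 0.068), while AGPAT3, an acyltransferase, and PLIN3, a droplet coat protein, rose (1.01 ± 0.060 and 0.65 ± 0.043). PLIN2, another droplet coat gene, was listed at no more than 0.13 TPM in any library and was not tested.

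**Figure D5:**
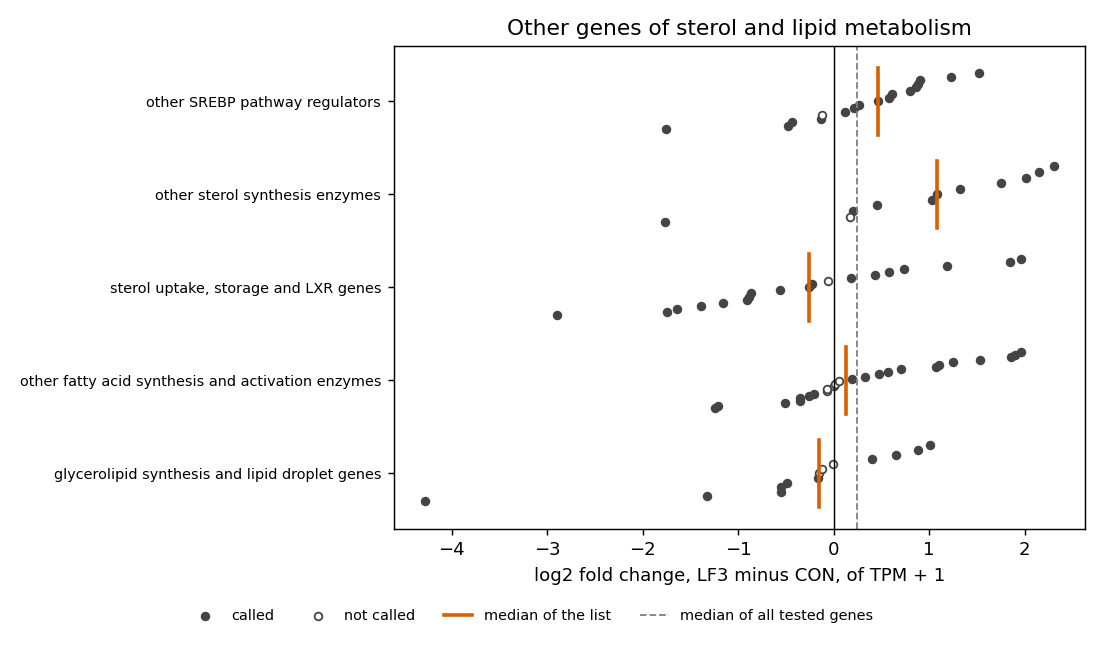
Log2 fold change, LF3 minus CON, of the tested genes in 5 further lists of sterol and lipid metabolism; filled circles were called, open circles not, orange bars mark list medians and the dashed line the median of all tested genes. In the list of other sterol synthesis enzymes, with a median of 1.09, 1 of 11 points lies left of 0; the leftmost point of all is HILPDA at -4.28.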

How the data were processed

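RNA of 6 CAL-27 sphere libraries was sequenced on a BGISEQ500 with single 50-base reads, per the labels' protocols. HISAT, Bowtie2 and GRCm38.p6 are named in the submitters' processing notes; that build is of the mouse, while the deposited identifiers are human, and the labels do not settle which genome was used. The deposited values are TPM, computed by the authors, with column totals of 999999.64 to 1000000.41; depth is unknown.

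The members and lists were chosen with earlier results of these data known. The promoters shown, their window (a longer one was scanned first), the within-library ratios and the genes behind the median-ratio size factors (mean of at least 1 TPM) were chosen after values had been seen. The 12195 genes averaging 1 TPM or more (5085 not tested) were transformed to log2(TPM + 1) and fitted with limma 3.58.1 (R 4.3.3, mean-variance trend, no block), checked first on simulated data. Named genes are all members, up to 4 called members of each further list with the smallest adjusted p, and genes whose exons overlap a member's. Some genes that this rule picks are not reported here, while list counts and medians cover every listed gene. Libraries of a group correlated at r = 0.996 to 0.997 across genes and shared 0.320 to 0.541% identical values, so all 6 were kept. Exon overlaps come from GENCODE 29; promoters and pseudogenes come from RefSeq. The settings varied were the pseudocount (0.1 or 0.5), the filter (none, or 5 TPM), the scaling (median-ratio or quantile), limma without trend, with robust variances or array weights, the replicate block, leaving out each library and, added after seeing the data, size factors over all genes above 0. Figures used matplotlib 3.10.9 in Python 3.11.15.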

Additional observations from a re-analysis of the deposited data

How the results depend on the processing

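Of the 34 genes, 28 kept their direction and call under all 17 alternatives, ABCA1 having no value with the filter of 5 TPM. After median-ratio scaling, quantile normalization and median-ratio scaling over all genes above 0 (added after seeing the data), SREBF1 turned to -0.10, -0.20 and -0.047 and NSDHL to -0.20, -0.29 and -0.14. ABCA1, FADS2, FASN and ELOVL5 kept their direction throughout but changed their call under some alternatives. FASN lost its call under quantile normalization alone, while ABCA1 kept its call there. NFYB turned to -0.040 after median-ratio scaling and -0.075 after quantile normalization. Under the same 3 scalings the medians were -1.02, -1.10 and -0.97 for the sterol branch, 0.18, 0.11 and 0.23 for the fatty acid branch and -0.0055, 0.026 and 0.045 for all tested genes. In the further lists they were 0.19, 0.094 and 0.25 for SREBP machinery and 0.83, 0.78 and 0.88 for other sterol enzymes. They were -0.53, -0.57 and -0.47 for uptake, storage and LXR genes and -0.11, -0.058 and -0.071 for further fatty acid genes. For glycerolipid genes they were -0.40, -0.49 and -0.35. A filter of 5 TPM gave -0.83 for the sterol branch, 0.31 for all tested genes and 0.40 for further fatty acid genes. Of the further fatty acid genes, 3 were then called lower. No filter gave 0.023 for all tested genes and 0.046 for further fatty acid genes. Further fatty acid genes had 11 called lower under both median-ratio scalings, and other sterol enzymes 2 under quantile normalization. Other sterol enzymes had medians of 1.14 and 1.12 with pseudocounts of 0.1 and 0.5, and glycerolipid genes -0.083 with array weights. Leaving out a library gave 0.39 to 0.51 for the fatty acid branch. The causes were not tested, beyond the genes that a filter removes and the shift that a scaling makes. Same-numbered libraries deviated together with r = 0.048, 0.11 and 0.16 across genes, not all above 0.1, so the numbers were not taken as pairs; whether same-numbered libraries shared a batch was not tested. With the replicate block the sterol branch had 5 called higher and 18 lower with a median of -0.76. The fatty acid branch then had 6 higher and 3 lower with a median of 0.45. Without the block 53.2% of all tested genes were called higher and 32.3% lower, and with it slightly more were called in each direction. TPM keep no depth, which limits low genes such as ABCA1.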
